A study of Brassica napus with 112 samples.

Results

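The genes described here stand at the start of chromosome C09 of rapeseed (Brassica napus) in the order of their identifiers, from BnaC09g00010D to BnaC09g22000D. The stretch was chosen by the measured difference between the hybrids, as its genes had lower values in Lumen than in Solar in these same libraries, so that difference is a description and was not tested. It holds 2200 listed genes, and a gene counted as a member when its value was at least 1 in at least 47% of the 56 silique or 56 seed libraries. There were 1243 members (56.5% of the stretch), compared with 60177 genes that passed the same filter among the 101040 listed for the whole genome. Of the members, 1012 passed in both tissues, 140 in siliques only and 91 in seeds only, which gives 1152 genes in siliques and 1103 in seeds. The other 957 genes of the stretch passed in neither tissue, and 434 of the 2200 were at 0 in all 112 libraries. The comparison groups were the 1878 other C09 genes that passed the filter and the 1375 that passed among A09 genes numbered up to 22000.

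Rapeseed is an allotetraploid that carries an A subgenome, from the ancestor of turnip, and a C subgenome, from the ancestor of cabbage. Most genes therefore exist as similar copies in both subgenomes, called homoeologues, and A09 and C09 share related segments. Rapeseed cultivars are known to differ in segments where homoeologous chromosomes have exchanged DNA, so that a segment of one subgenome can be lost or present in extra copies. No DNA was measured in these samples, and the dose of the stretch in either hybrid was not tested. The gene numbers give the order in the annotation, with no positions in bases, and A09 genes of the same numbers are a reference by number and not a set of matched homoeologues.

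Lumen and Solar are F1 hybrids of spring rapeseed. Their siliques, the pods that enclose and supply the seeds, and the seeds themselves were taken from field plots 7 or 14 days after flowering (DAF) in each of 2 seasons. Plots were either left as Control or kept under Heat, 5 °C above the surroundings on average, in chambers of transparent polyethylene film, so that warming cannot be told apart from other effects of the film. Each combination of hybrid, treatment and time had 3 libraries in season 1 and 4 in season 2, which gives 28 libraries per hybrid and tissue. A sample was pooled from 5 plants of a plot. Both ages were reached on earlier dates in Lumen than in Solar, with a wider gap in season 1 than in season 2. Hybrid and sampling date can therefore not be told apart. Heat was assigned to main plots in season 1 and to plots in blocks in season 2, the plot of the fourth season 2 replicate is not explained, and the fits treated the libraries as independent. In bulk tissue, fewer cells of a type and less RNA per cell cannot be told apart.

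The deposited values are whole numbers on a scale like TPM (transcripts scaled to a fixed library total), and they summed to between 890194 and 1658548 per library. The depth behind a single value is unknown, so the spread between libraries served as the error. Some libraries stood apart. Heated Lumen seeds at 7 DAF in season 2, replicate 4, had 66990 genes at 0 against a median of 47897 in seeds, and Solar Control seeds at 14 DAF in season 1, replicate 1, had 33.5% of its sum in 10 genes. Other libraries held RNA of genes that their own hybrid otherwise lacked: outside C09 and A09, 41 silique genes and 48 seed genes were at a median of 0 in Lumen and at 5 or more in every Solar library. The summed value of these Solar genes reached 16.3% of the median Solar library in siliques and 18.9% in seeds in replicate 3 of Lumen Control at 14 DAF in season 2, and 10.7% in replicate 4 of the same seeds, while the median over Lumen libraries was 0.718% in siliques and 0.562% in seeds. In the opposite direction, 24 such Lumen genes reached 12.5% in the Solar Heat siliques at 14 DAF in season 2, replicate 1, against a median of 1.24%.

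Most genes of the stretch were lower in Lumen, in siliques and in seeds alike, by an amount that varied from gene to gene. The difference, Lumen minus Solar on the log2(value + 0.5) scale, had a median of -0.59 over the 1152 members in siliques and of -0.67 over the 1103 in seeds. With a pseudocount of 5, which shrinks the differences of low genes, these medians were -0.26 and -0.32. The corresponding medians were -0.01 and -0.04 over all genes, -0.02 and -0.04 over the other C09 genes, and 0.12 and 0.05 over the A09 genes. The difference lay below 0 for 84.3% of the members in siliques and 86.7% in seeds, and the interquartile range was from -0.88 to -0.22 in siliques and from -0.92 to -0.30 in seeds. In siliques 762 members (66.1%) were lower in Lumen at a limma q-value under 0.01, against a background of 18.9% of all genes, and 69 (5.99%) were higher, against 17.9%. In seeds 767 (69.5%) were lower, against 20.0%, and 88 (7.98%) were higher, against 16.9%. These calls rest on the contrast that chose the stretch and are given as counts only.

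Between -1 and -0.5 lay 483 silique members (41.9%) and 471 seed members (42.7%), while 9.92% of all genes in siliques and 9.80% in seeds lay there. Another 416 silique members and 334 seed members lay within 0.5 of 0, as did 40021 of all 54752 silique genes and 39329 of 53350 seed genes. A difference of -1 or less was seen for 181 members in siliques (15.7%) and 216 in seeds (19.6%), against 4.78% and 5.12% of all genes. It was -2 or less for 20 and 30 members, and for 590 and 606 of all genes. The ratio of the Lumen mean to the Solar mean, which has no pseudocount, had a median of 0.632 in siliques and 0.608 in seeds, against 1.00 and 0.987 over all genes. Among members with a mean value of at least 20, for which the pseudocount matters little, it was 0.597 over 171 genes in siliques and 0.577 over 177 in seeds. On the other side, 38 silique members (3.3%) and 43 seed members (3.9%) were higher in Lumen by 1 or more. These shares were near those of all genes, 4.07% and 3.97%.

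**Figure D1:**
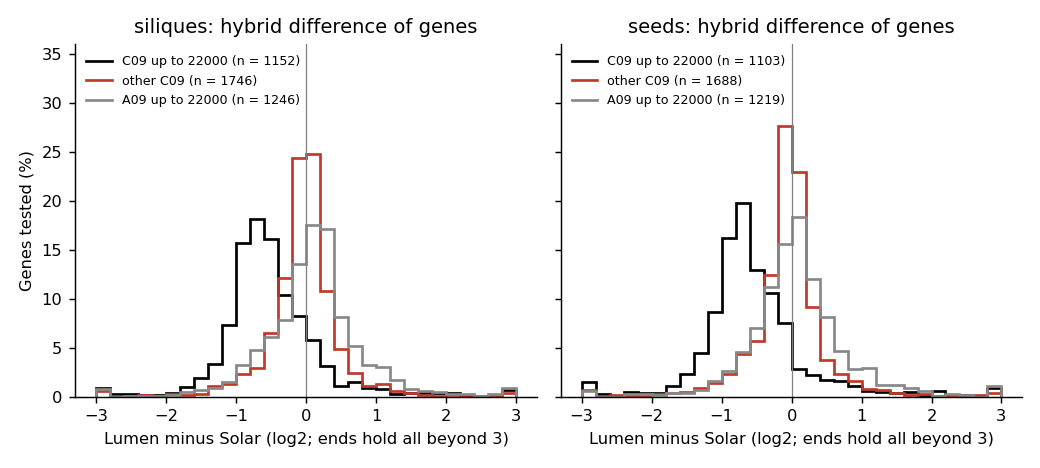
Share of the tested genes (vertical axis, percent) by their Lumen minus Solar difference (horizontal axis, log2), for the C09 stretch (black), the other C09 genes (red) and A09 genes numbered up to 22000 (grey), in siliques on the left and seeds on the right. The C09 stretch is shifted to the left of both references, with medians of -0.59 and -0.67.

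A member that passed the filter only through Solar had to be lower in Lumen, so the filter was also applied within each hybrid. It was passed within each hybrid by 1083 silique members and 1026 seed members, within Solar only by 38 and 49, and within Lumen only by 31 and 28. The members that passed in each hybrid had median differences of -0.59 in siliques and -0.67 in seeds, and 67.2% and 71.2% of them were lower in Lumen, against 18.2% and 19.4% of all genes handled in the same way.

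The lower level ran along nearly the whole stretch. In bins of 1000 gene numbers, the median difference was below 0 in 22 of 22 bins in both tissues, between -0.81 and -0.17 in siliques and between -0.86 and -0.19 in seeds. It was furthest below 0 from 5001 to 6000 in siliques and from 6001 to 7000 in seeds. It was nearest to 0 from 18001 to 19000, where the medians were -0.17 and -0.19 and 35.9% and 30.8% of the genes were lower in Lumen. The longest run of neighbouring tested genes with a difference below 0 in C09 held 41 genes in siliques, numbered 3090 to 3720, and 72 in seeds, numbered 3090 to 4550. On A09 the longest runs held 17 and 30 genes.

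The chosen limits did not coincide with the ends of the difference. At the start, the first bin had medians of -0.23 in siliques and -0.38 in seeds, which in finer bins of 250 numbers were made of -0.49 and -0.68 for genes 1 to 250 and of -0.10 and -0.03 for genes 751 to 1000. From 1251 to 1500, 16 of 16 silique genes and 17 of 17 seed genes were lower in Lumen, with medians of -0.90 and -0.95. At the other end, the difference went on past the last member: the median was -0.59 and -0.63 from 22001 to 23000 and -0.36 and -0.40 from 23001 to 24000, and then 0.06 and -0.02 from 24001 to 25000. Within the last of these bins with a lower level, the medians reached 0.05 and -0.05 from 23751 to 24000. Over the 25 bins from 24001 to 49000, the medians stayed between -0.08 and 0.14 in siliques and between -0.09 and 0.15 in seeds. Near the far end of C09, genes 50001 to 51000 had medians of 0.47 and 0.48 and genes 51001 to 52000 of -0.68 and -0.62.

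The last members inside the limit were low genes. BnaC09g21970D had 1 to 5 in Lumen siliques and 1 to 5 in Solar siliques, with a difference of -0.43, and 0 to 5 and 0 to 6 in seeds, with a difference of -0.29. BnaC09g21990D, a member through seeds only, had 0 to 5 in Lumen seeds and 0 to 7 in Solar seeds, with a difference of -0.14. The first tested genes outside it had larger differences. BnaC09g22060D had 0 to 2 in Lumen siliques and 0 to 5 in Solar siliques, which overlapped, and 0 to 3 and 4 to 8 in seeds, with no overlap. BnaC09g22070D had 1 to 2 and 1 to 10 in siliques, which overlapped, and 2 to 29 (median 3) and 81 to 175 (median 128) in seeds, with no overlap.

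**Figure D2:**
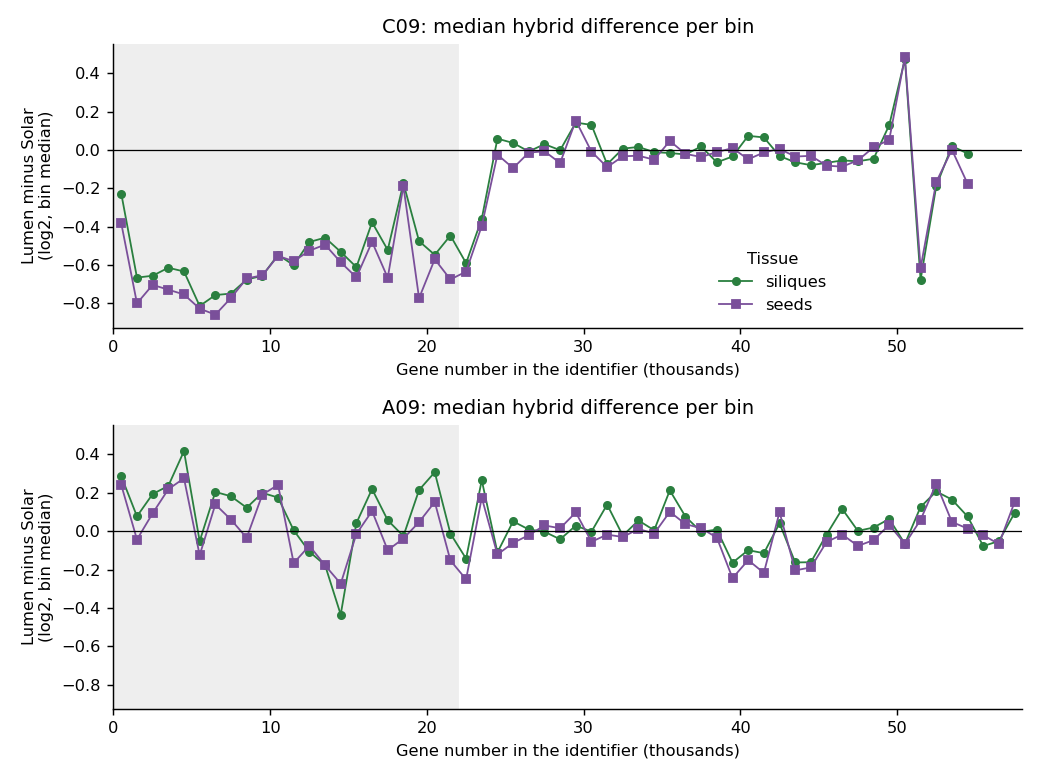
Median Lumen minus Solar difference (vertical axis, log2) in bins of 1000 gene numbers along C09 (top) and A09 (bottom), with the gene number divided by 1000 on the horizontal axis, siliques as green circles and seeds as purple squares. Grey shading marks numbers up to 22000. In C09 all 22 shaded bins lie below 0 and the curve returns to 0 by bin 24001 to 25000, while the shaded A09 bins lie on both sides of 0.

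The A09 genes of the same numbers had another pattern. Their bin medians lay between -0.44 and 0.42 in siliques and between -0.27 and 0.28 in seeds, below 0 in 6 and 11 of the 22 bins. In siliques 387 of 1246 A09 genes (31.1%) were higher in Lumen and 256 (20.5%) lower, and in seeds 369 of 1219 were higher and 252 lower. As a share of a library's summed values, all listed genes of the C09 stretch made up a median of 1.87% in Lumen siliques and 2.52% in Solar siliques, and of 2.12% and 2.89% in seeds. The A09 genes of the same numbers made up 2.49% and 2.43% in siliques and 3.00% and 2.99% in seeds. The C09 sum divided by the A09 sum was therefore 0.750 in Lumen and 1.05 in Solar siliques, and 0.713 and 0.977 in seeds, as medians over libraries. The sum of both stretches was 4.38% in Lumen and 4.95% in Solar siliques, and 5.13% and 5.91% in seeds. Reads of near-identical copies can be split between A09 and C09 by pseudoalignment, so the ratio of the subgenomes is uncertain for such genes.

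The level of the stretch was also taken library by library. For each library, the deviations of its log2 values from the gene means were taken for genes with a mean of at least 5, and the median over the other C09 genes was subtracted from the median over the members (593 in siliques and 600 in seeds). In siliques this level was -0.39 to 0.14 in Lumen, with a median of -0.31, and 0.21 to 0.48 in Solar, with a median of 0.29. In seeds it was -0.43 to 0.06 in Lumen, with a median of -0.33, and 0.25 to 0.49 in Solar, with a median of 0.32. Lumen and Solar did not overlap in any of the 8 pairs of conditions of either tissue, which follows from the choice of the stretch. The share of summed values separated them less well in siliques, where the highest Lumen library, at 2.46%, lay above the lowest Solar library, at 2.36%, and the hybrids did not overlap in 7 of the 8 pairs of conditions. In seeds the shares did not overlap, and the highest Lumen share, 2.53%, was that of Control at 14 DAF in season 2, replicate 1. By the log2 level, the highest Lumen library in both tissues was replicate 3 of Control at 14 DAF in season 2, and replicate 4 of that condition came next with -0.14 in siliques and -0.17 in seeds. These are the libraries in which Solar genes were found in seeds, and replicate 3 also in siliques. Silique replicate 4 held Solar genes at 0.0797%, the lowest of the Lumen silique libraries. Its level of the A09 genes, taken in the same way, was 0.23, the highest of the Lumen silique libraries. Its share of summed values in the C09 stretch was 1.71%, below the Lumen silique median of 1.87%. The part of Solar genes in the level of the stretch was not tested.

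**Figure D3:**
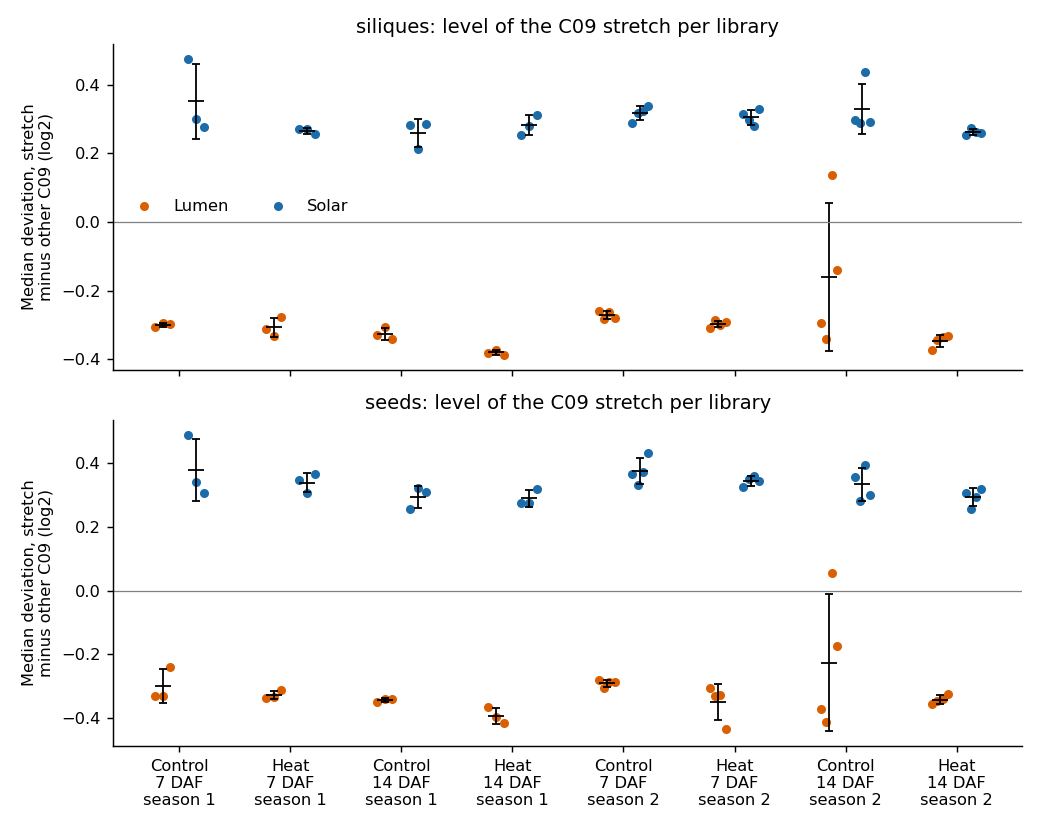
Level of the C09 stretch relative to the other C09 genes (vertical axis, log2) in each library of siliques (top) and seeds (bottom), by treatment, DAF and season on the horizontal axis, with Lumen in orange and Solar in blue. Horizontal ticks are condition means and bars are 1 SD over the 3 or 4 libraries. Every Solar library lies above every Lumen library, and replicate 3 of Lumen Control at 14 DAF in season 2 is the highest of its hybrid in both tissues, at 0.14 and 0.06.

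Without the libraries that held genes of the other hybrid, a choice made after seeing the data, 762 silique members and 766 of 1097 seed members were lower in Lumen, and the medians were -0.61 and -0.68. Without both seed libraries that stood apart in their zeros or their highest genes, the seed median was -0.64. The difference was present in each condition, but the stretch was chosen on these same libraries, so this is a description only. The median over the members ranged from -0.62 to -0.55 over the 8 conditions of siliques and from -0.77 to -0.56 over those of seeds. The corresponding medians of the other C09 genes ranged from -0.07 to 0 and from -0.13 to 0. The median furthest below 0 in seeds, -0.77, was that of Heat at 7 DAF in season 2, which includes the Lumen library with 66990 genes at 0.

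The order of the levels within a hybrid was also compared between tissues, pairing silique and seed libraries of the same condition and replicate number, although the labels do not state that they came from the same plot. Among 28 Lumen pairs the level had a Pearson r of 0.92 and a Spearman rho of 0.74, each with a permutation p of 2e-05. Without the 2 pairs farthest from the median silique level, r was 0.59 and rho 0.67, and no p was computed for these values. The 2 pairs left out were replicates 3 and 4 of Control at 14 DAF in season 2. Their seed libraries held Solar genes at 18.9% and 10.7%. The part of Solar genes in the correlation was not tested. Among 28 Solar pairs r was 0.71 (permutation p = 0.00027) and rho 0.54 (permutation p = 0.0033), and r was 0.45 without the 2 farthest pairs. With the mean of each condition removed, r was 0.93 and rho 0.52 in Lumen (permutation p = 1e-05, the smallest that 100000 permutations give, and 0.0051), and r was 0.67 and rho 0.35 in Solar (permutation p = 0.00013 and 0.073). Without the 2 farthest pairs these r were 0.70 and 0.37. After Benjamini-Hochberg adjustment over the 4 relations, the permutation p of rho was 8e-05 in Lumen and 0.0065 in Solar, and 0.0068 and 0.073 with condition means removed, while those of r were 0.00027 or less.

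**Figure D4:**
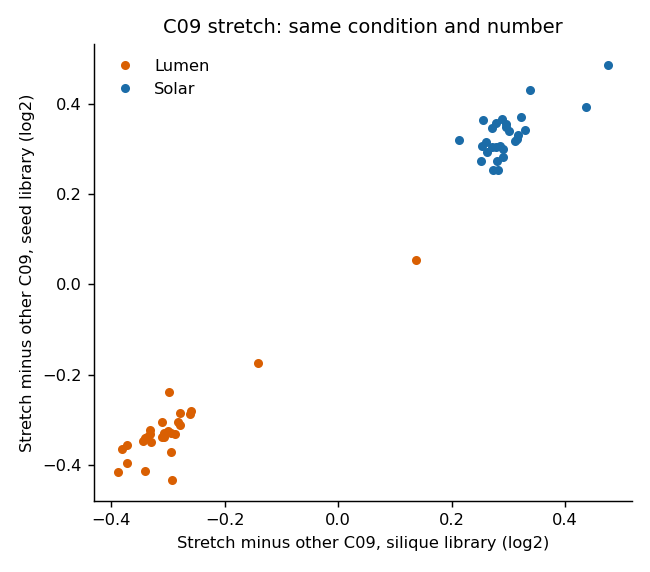
Level of the C09 stretch relative to the other C09 genes (log2) in the silique library (horizontal axis) and in the seed library (vertical axis) of the same condition and replicate number, with 28 pairs of Lumen in orange and 28 of Solar in blue. The hybrids form separate groups, and the Lumen pair nearest to Solar, at 0.14 and 0.06, is replicate 3 of Control at 14 DAF in season 2.

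Gene by gene, siliques and seeds gave much the same picture. Of the 1012 members tested in both tissues, 834 (82.4%) had a difference below 0 in both, 638 (63.0%) were called lower in Lumen in both, 38 were called higher in both, and 8 were called in opposite directions. Another 58 were called lower in siliques only and 87 in seeds only, which does not show that they differed between tissues. The same counts were not taken over all genes tested in both tissues. Within siliques and within seeds, 18.9% and 20.0% of all genes were called lower and 17.9% and 16.9% higher. A difference below 0 was seen for 50.9% and 54.9% of all genes. The differences had r = 0.83 and rho = 0.74 across the 1012 members, which come from the same hybrids and are not independent.

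Few members were absent from a hybrid. In siliques 10 members (0.868%) had a median of 0 in Lumen and at least 1 in every Solar library, against 0.511% of all genes, and in seeds 12 (1.09%), against 0.527%. The reverse held for 7 members (0.608%) in siliques and 5 (0.453%) in seeds, against 0.382% and 0.279%. All 28 Lumen values lay under all 28 Solar values for 25 members in siliques (2.17%, against 0.67% of all genes) and for 60 in seeds (5.44%, against 1.12%). They lay over all Solar values for 9 (0.781%, against 0.725%) and 7 (0.635%, against 0.909%). For most members the ranges of the hybrids thus overlapped.

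The members with the largest difference among well expressed genes went far beyond the typical size. BnaC09g10000D was at 0 or 1 in all Lumen silique libraries and at 45 to 130 (median 73) in Solar, and in seeds at 0 to 10 (median 1) in Lumen and at 42 to 103 (median 66) in Solar. Its fitted differences were -6.46 in siliques and -5.69 in seeds, which depend on the pseudocount at values this low. The Lumen seed values of 10 and 7 came from replicate 4 of Control at 14 DAF and replicate 4 of Heat at 7 DAF in season 2, and the rest were at 2 or less. BnaC09g07160D had 0 to 5 (median 2) in Lumen siliques and 22 to 73 (median 37) in Solar, and 0 to 9 (median 4) and 33 to 83 (median 57) in seeds, with differences of -4.02 and -3.75. For both genes the hybrids did not overlap in either tissue. The files and the gene table at hand pair neither identifier with a name.

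A minority went the other way. BnaC09g11740D had 17 to 32 (median 26) in Lumen siliques and 2 to 30 (median 6) in Solar, and 17 to 32 (median 23) and 3 to 23 (median 7.5) in seeds, with differences of 1.92 and 1.48. The Lumen values were even, whereas single Solar libraries were high in both tissues, such as Control at 7 DAF in season 2, replicate 3, with 21 in siliques and 20 in seeds, and Heat at 7 DAF in season 2, replicate 4, with 30 and 23. BnaC09g08390D had 108 to 1473 (median 581.5) in Lumen siliques and 183 to 838 (median 313.5) in Solar, a difference of 0.78 that overlapped widely, and 31 to 130 (median 81.5) and 11 to 89 (median 32) in seeds, a difference of 1.39. Of the 22 members that were higher in Lumen by 1 or more in both tissues, 5 were numbered 13001 to 14000, a bin with 39 genes tested in both, and in that bin 17.6% of the silique genes and 22.7% of the seed genes were higher in Lumen. These shares compare with 17.9% and 16.9% of all genes, so the silique share was near the background.

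**Figure D5:**
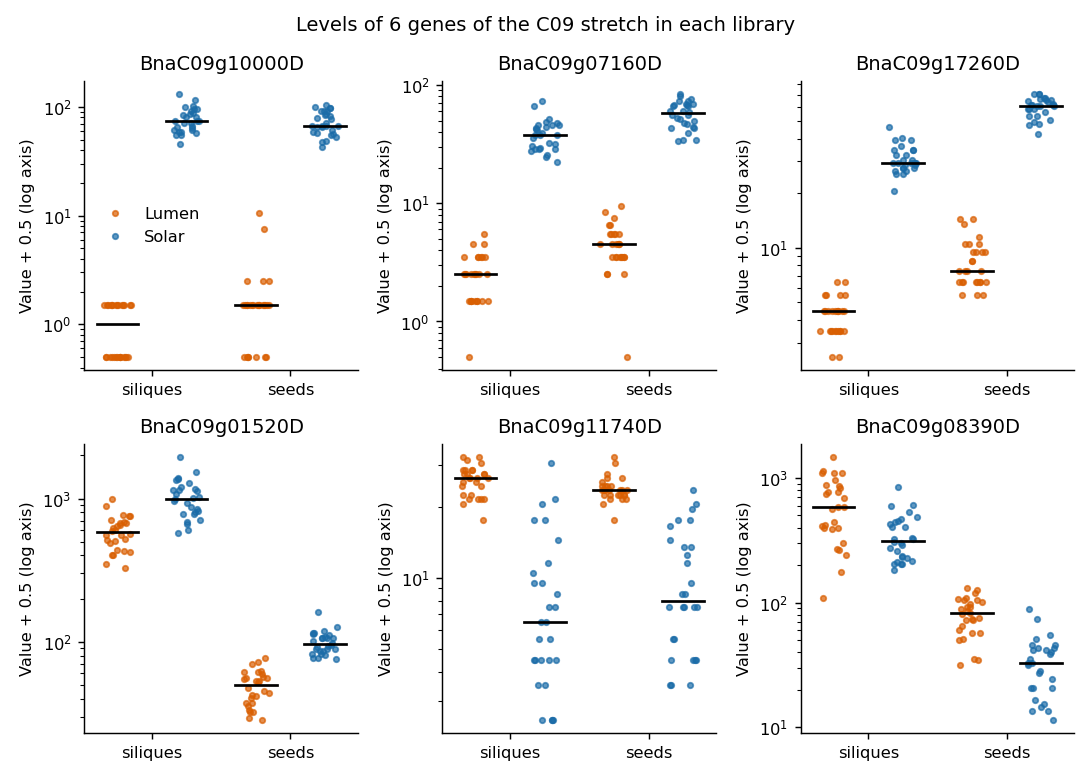
Value + 0.5 (vertical log axis) of 6 genes of the C09 stretch in the 28 Lumen (orange) and 28 Solar (blue) libraries of siliques and of seeds, with black lines at the group medians. BnaC09g10000D, BnaC09g07160D and BnaC09g17260D show no overlap between the hybrids, BnaC09g01520D shows a smaller step, and BnaC09g11740D and BnaC09g08390D are higher in Lumen.

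Terms of the Gene Ontology (GO) were at hand for 62 members, all of them tested in both tissues. The terms came from lists that the study drew up for coexpression modules built on these same libraries, so they are not independent evidence of a direction. Of the 62, 57 belong to the module lightblue3, as do 683 of the 1735 genes listed under a term in all. The paper reports a positive correlation of this module with seed protein, which was higher in Solar than in Lumen in control plants. In siliques 55 of the 62 were lower in Lumen and 1 higher, with a median difference of -0.75, and in seeds 59 were lower and 2 higher, with a median of -0.79, against medians of -0.59 and -0.67 over all members. The median also varied with level: it was -0.76 and -0.80 over members with a mean of at least 20. Over those with a mean of 5 to 20 it was -0.65 and -0.73. The 62 were not compared with members of the same level. The lower calls compare with 66.1% and 69.5% of all members and with 18.9% and 20.0% of all genes. They were not compared with those of other lightblue3 genes. The most frequent term was ubiquitin-dependent protein catabolism, the route that marks proteins for breakdown, with 7 members. Vitamin binding, which covers enzymes with cofactors derived from vitamins, and oxidoreductase activity on CH-OH groups had 6 members each. Vesicle-mediated transport and protein heterodimerization had 5 each, iron-sulfur cluster binding and NADP binding 4 each, histone binding 3 and photosynthesis 2.

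Both photosynthesis members were lower in Lumen. BnaC09g01520D was among the highest genes of the stretch in siliques, with 325 to 998 (median 581) in Lumen and 573 to 1953 (median 999.5) in Solar, and a difference of -0.76 (SE 0.08). In seeds it had 28 to 77 (median 49.5) and 75 to 161 (median 96.5), a difference of -1.03 (SE 0.08). Its ranges overlapped in both tissues, in seeds only through the Lumen value of 77 in replicate 3 of Control at 14 DAF in season 2, a library with Solar genes. BnaC09g07990D, which is also listed under cellular component assembly, had 231 to 607 (median 348) in Lumen siliques and 316 to 868 (median 528) in Solar, a difference of -0.62 (SE 0.06). In seeds it had 33 to 69 (median 42.5) and 83 to 132 (median 106), a difference of -1.28 (SE 0.05), with no overlap.

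Of the vesicle-mediated transport members 5 of 5, and of the ubiquitin-dependent catabolism members 6 of 7, were lower in Lumen in both tissues. The exception was BnaC09g00760D, with differences of -0.39 and -0.32 that did not pass the threshold. Of all members tested in both tissues, 63.0% were lower in both. Of the 62 annotated members, 55 were lower in siliques and 59 in seeds, against 18.9% and 20.0% of all genes. These counts use the contrast that chose the stretch. BnaC09g17260D, of vesicle-mediated transport, by which cells move cargo between compartments, had 2 to 6 (median 4) in Lumen siliques and 20 to 46 (median 29) in Solar, and 5 to 14 (median 7) and 42 to 70 (median 60.5) in seeds. The differences were -2.90 (SE 0.07) and -2.89 (SE 0.06), with no overlap in either tissue. BnaC09g04820D, of ubiquitin-dependent protein catabolism, had 12 to 26 (median 15) in Lumen siliques and 24 to 45 (median 31) in Solar, and 14 to 39 (median 27) and 47 to 77 (median 55) in seeds, with differences of -0.97 and -1.06. BnaC09g05410D, of protein folding and unfolded protein binding, had 17 to 62 (median 29) and 40 to 80 (median 59) in siliques, a difference of -1.04, and 26 to 62 (median 41) and 42 to 110 (median 67.5) in seeds, a difference of -0.69.

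Among members that bind cofactors or metal clusters, the size varied. BnaC09g16320D, of vitamin binding, had 17 to 37 (median 24) in Lumen siliques and 44 to 70 (median 56) in Solar, with no overlap, and differences of -1.21 in siliques and -1.24 in seeds. BnaC09g01700D, of the same term, had differences of -0.66 and -0.90. BnaC09g15440D, of NADP binding, had -0.71 and -0.62, and BnaC09g08590D, of NAD binding, -0.76 and -0.55. Of the iron-sulfur cluster members, which often serve in electron transfer, BnaC09g00030D had -0.88 and -0.98. BnaC09g00580D had 214 to 683 (median 390.5) in Lumen siliques and 236 to 640 (median 362.5) in Solar, a difference of 0.07 that was within the spread, and 19 to 41 (median 31.5) and 29 to 64 (median 44.5) in seeds, a difference of -0.55.

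Of the other annotated members named by level, BnaC09g06910D, listed under protein heterodimerization, a term that includes histones, had 17 to 199 (median 103) in Lumen siliques and 35 to 381 (median 152.5) in Solar, and differences of -0.79 in siliques and -0.67 in seeds. BnaC09g21870D, listed as an extrinsic component of membrane, had a small difference of -0.24 in siliques, where 251 to 618 (median 433) in Lumen overlapped 297 to 819 (median 521.5) in Solar, and a larger one of -0.98 in seeds, with 13 to 64 (median 47.5) and 61 to 138 (median 84.5). For the cellular component assembly members, BnaC09g05080D had -0.86 and -0.70 and BnaC09g10040D -0.21 and -0.31. The difference of BnaC09g21870D between the tissues was not tested.

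The responses to heat, time and season were not used in choosing the stretch and were tested. Heat changed few members in either tissue. In siliques 44 members (3.82%) fell under heat and 10 (0.868%) rose, against 2.90% and 2.19% of all genes. In seeds 11 (0.997%) fell and 7 (0.635%) rose, against 0.641% and 0.999%. The estimated heat effect had the same sign in Lumen and Solar for 54 of the 54 called silique members and 18 of the 18 seed members, and the median size of the called changes was 0.37 and 0.33 on the log2 scale. The total called, 4.69% in siliques and 1.63% in seeds, was close to the shares of all genes, 5.09% and 1.64%. The seed count varied with the libraries used: it was 28 without the heated Lumen library at 7 DAF in season 2, replicate 4, and 2 to 15 when a replicate number was left out. The silique count was 23 to 45 when a replicate number was left out. Here and below, runs without a replicate number have fewer samples by construction, so a lost call does not single out particular libraries.

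The photosynthesis members fell under heat in siliques. BnaC09g01520D had 401 to 1953 (median 791) in Control and 325 to 1160 (median 681) in Heat, a change of -0.30 (limma q = 0.00798), with medians of 638.5 and 554 in Lumen and of 1179.5 and 827 in Solar. BnaC09g07990D had 306 to 868 (median 437.5) and 231 to 633 (median 365), a change of -0.35 (limma q = 5.7e-05). The ranges of Control and Heat overlapped for both, and neither passed the threshold in seeds, where the changes were -0.02 and 0.05. Also among the annotated members, BnaC09g21870D (-0.39, limma q = 1.4e-05), BnaC09g00580D (-0.39, limma q = 0.00122) and BnaC09g15440D (-0.26, limma q = 0.000288) fell in siliques. BnaC09g05410D, of protein folding, rose in siliques by 0.26 (limma q = 0.00305), from 17 to 69 (median 39.5) in Control to 23 to 80 (median 51.5) in Heat, with medians of 29.5 and 28 in Lumen and of 56 and 62.5 in Solar. Of the 62 annotated members, 6 fell and 2 rose in siliques, and 0 changed in seeds at this threshold, where 2.90% and 2.19% of all genes fell and rose in siliques and 1.64% changed in seeds, so that 0 of 62 in seeds is near the background.

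Among unannotated members with a mean of at least 20, BnaC09g12310D had the largest rise under heat in siliques, by 0.60 (limma q = 4.73e-09), with 16 to 36 (median 22) in Control and 19 to 64 (median 31) in Heat. The medians went from 20 to 27 in Lumen and from 24 to 43 in Solar, although the 4 heated Solar libraries at 14 DAF in season 2 stayed at 23 to 24. BnaC09g17930D had the largest fall, by 0.79 (limma q = 4.5e-07), with 10 to 62 (median 26) in Control and 3 to 28 (median 16.5) in Heat. In seeds BnaC09g06820D rose by 1.82 (limma q = 0.00454), but its values were scattered, with 0 to 207 (median 1.5) in Control and 0 to 504 (median 5.5) in Heat, and the values above 100 all came from Solar in season 1. Its q was 0.019 to 0.0926 when a replicate number was left out, so the call was lost each time. BnaC09g00040D fell by 0.32 in seeds (limma q = 0.00188), from 10 to 42 (median 20) to 6 to 39 (median 16), with q of 0.122, 0.0166 and 0.0221 without replicate 1, 2 or 3.

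Between 7 and 14 DAF, 166 silique members (14.4%) fell and 192 (16.7%) rose, against 17.1% and 17.2% of all genes. In seeds 164 (14.9%) fell and 223 (20.2%) rose, against 16.3% and 20.7%. In either direction 358 silique members (31.1%, against 34.3% of all genes) and 387 seed members (35.1%, against 37.0%) changed. The signs in Lumen and Solar were the same for 346 of the 358 called silique members and 381 of the 387 seed members. The median size was 0.50 in both tissues, and 48 and 67 members changed by 1 or more. BnaC09g06910D, the heterodimerization member, had the largest fall in siliques among members with a mean of at least 20, from 84 to 381 (median 189.5) at 7 DAF to 17 to 156 (median 75.5) at 14 DAF, a change of -1.46 (limma q = 8.37e-11). In seeds it fell from 197 to 561 (median 314.5) to 88 to 340 (median 215.5), by 0.84 (limma q = 3.9e-12). BnaC09g13410D rose in siliques from 0 to 11 (median 0.5) to 1 to 264 (median 46.5), with a fitted change of 4.95 (limma q = 6.3e-15) that depends on the pseudocount.

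Seeds had other extremes of the time course. BnaC09g21780D fell from 58 to 327 (median 154) at 7 DAF to 24 to 146 (median 59.5) at 14 DAF, a change of -1.37 (limma q = 6.7e-12), with medians of 204.5 and 86.5 in Lumen and of 130.5 and 50.5 in Solar. This gene stood higher in Lumen than in Solar, unlike most of the stretch. BnaC09g19880D rose from 0 to 107 (median 12) to 8 to 446 (median 99.5), a change of 2.81 (limma q = 1.64e-08). Among the 62 annotated members, 13 fell and 6 rose with time in siliques, and 18 fell and 8 rose in seeds. The shares of all genes were 17.1% and 17.2% in siliques and 16.3% and 20.7% in seeds.

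Between seasons, 82 silique members (7.12%) were lower and 89 (7.73%) higher in season 2, against 7.92% and 7.32% of all genes. In seeds 153 (13.9%) were lower and 121 higher, against 15.1% and 12.2%. In either direction these were 171 silique members (14.8%, against 15.2%) and 274 seed members (24.8%, against 27.3%). Leaving out a replicate number gave 69 to 139 silique members and 143 to 304 seed members. In seeds BnaC09g06890D fell by 2.94 (limma q = 6.01e-08), from 4 to 435 (median 27.5) in season 1 to 0 to 21 (median 4) in season 2, and BnaC09g19880D rose by 1.85 (limma q = 8.04e-05), from 0 to 210 (median 15.5) to 0 to 446 (median 75). In siliques BnaC09g16540D was lower in season 2 (26 to 1763, median 254.5, in season 1 and 20 to 1162, median 74, in season 2), a change of -1.31 with a limma q of 0.00829. BnaC09g05590D was higher in season 2 (1 to 84, median 9.5, and then 3 to 190, median 31), a change of 1.64 with a limma q of 0.00216. The first call was lost without replicate 2 or 3 (q = 0.217 and 0.0756, limma) and the second without replicate 1 or 2 (q = 0.0504 and 0.0332, limma).

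Interactions with the hybrid were counted as a check of whether the difference between the hybrids depended on the condition. The sampling dates of the hybrids lay further apart in season 1, and a genotype by season call cannot be told apart from this. Genotype by season passed the threshold for 38 silique members (3.30%, against 4.45% of all genes) and 46 seed members (4.17%, against 5.82%). Genotype by time passed it for 60 silique members (5.21%, against 5.07%) and 16 seed members (1.45%, against 1.11%). Genotype by heat passed it for 0 members in either tissue, with limma, as for 0.0% of all genes, while 70 silique members (6.08%, against 6.81% of all genes) and 38 seed members (3.45%, against 3.50%) had an unadjusted p under 0.05. Leaving out a replicate number gave 9 to 33 and 12 to 53 members for genotype by season and 20 to 43 and 2 to 9 for genotype by time, in siliques and in seeds.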

How the data were processed

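The authors pseudoaligned reads of stranded total RNA libraries with kallisto (0.46 in the submitters' processing notes) to the annotation AST_PRJEB5043_v1 and tested genes with sleuth. The deposited table holds whole numbers for 101040 genes in 112 libraries. It was used as a score, TPM-like values that the authors rescaled and rounded in an unstated way, not as counts. Reads per gene cannot be recovered, and libraries were compared by their spread. In each tissue, log2(value + 0.5) was fitted for the genes that reached 1 in no fewer than 47% of libraries, using limma 3.58.1 in R 4.3.3 (trend in the prior variance) with genotype, heat, time, season and all interactions, sum-to-zero coded, and q-values were adjusted by the Benjamini-Hochberg method over all 54752 silique or 53350 seed genes, with a threshold of 0.01. Each effect averages over the levels of the remaining factors. The fit was tested on simulated data in which changed genes were known.

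The members and lists were chosen with earlier results of these data known. Named genes were, by rule, the 2 most lower and 2 most higher in Lumen in both tissues with a mean of at least 20 in the higher hybrid, the 15 highest members with a GO term, the largest rise and fall for heat, time and season and the smallest q for 2 interactions with a mean of at least 20, and the 2 genes on each side of the limit. Of the C09 identifiers, 0 matched the RefSeq gene table, so no names are given. Other settings tried were no filter, a pseudocount of 5, a minimum mean of 20, median-ratio scaling, a replicate block, each replicate number left out, each season alone and the libraries that stand apart left out. The last included, after seeing the data, those with at least 10% of the other hybrid's genes.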

Additional observations from a re-analysis of the deposited data

Results flagged for a closer look

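In siliques, the level of the C09 stretch relative to the other C09 genes stood at 0.4379 in replicate 3 of Solar Control at 14 DAF in season 2, far from the other 3 libraries of its condition, which lay between 0.2901 and 0.297. The gap was 0.954 of the range, above the critical value of Dixon's test for 4 samples. The level of the A09 genes in this library was -0.24, against -0.06 in each of the others. The seed library of the same condition and number, at 0.39, was also the highest of its condition, with an A09 level of -0.14. The cause was not tested. Chance alone flags about 1 group in 20, and 16 groups of 4 libraries were examined per measure.

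Of the members past the threshold for genotype by season or genotype by time, 4 are described here. Each had the smallest q of its interaction and tissue in limma and a mean of at least 20. Their difference between the hybrids was called unequal between seasons or times. In siliques BnaC09g11960D (genotype by season, q = 0.00021) had medians of 27 in season 1 and 31.5 in season 2 in Lumen and of 30 and 63 in Solar. In siliques BnaC09g20830D (genotype by time, q = 4.03e-07) had medians of 9 at 7 DAF and 18 at 14 DAF in Lumen and of 26.5 at both times in Solar. In seeds BnaC09g12310D (genotype by season, q = 1.18e-07) had medians of 22 and 30.5 in Lumen and of 33 and 27 in Solar, so the order of the hybrids was opposite in the 2 seasons. In seeds BnaC09g00410D (genotype by time, q = 0.00201) had medians of 13 and 23.5 in Lumen and of 34.5 and 27.5 in Solar, and its q was 0.0119 to 0.0426 when a replicate number was left out, so this call was lost each time.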

How the results depend on the processing

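The lower level in Lumen kept its direction in both tissues under every alternative run. These runs used the libraries on which the stretch was chosen, so the kept direction is a description. Among 54 named results, 628 of 664 values kept direction and side of the threshold, 35 fell short of it and 1 changed sign. The last was BnaC09g00580D in siliques, with 0.07 in all libraries and -0.009 in season 1 alone, neither past the threshold. Restricting to means of at least 20 left 138 silique and 152 seed members lower in Lumen, since fewer genes were tested, with median differences of -0.76 and -0.80. A pseudocount of 5, which shrinks low genes, gave medians of -0.26 and -0.32. Heat changed 3 silique members in season 1 alone and 27 in season 2 alone, and 0 and 7 seed members, with fewer samples by construction. Time changed 90 silique and 227 seed members in season 1 alone. Without the seed library with the most genes at 0, heat changed 28 seed members and genotype by season 73. Genotype by time changed 26 seed members with a pseudocount of 5 and 26 with no filter, and genotype by heat 1 silique member with no filter. The cause was not tested for the last 5 counts. No silique library had that many genes at 0, so that setting gave no silique value.

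Leaving out each replicate number, with fewer samples by construction, gave 681 to 729 silique and 690 to 767 seed members lower in Lumen. It gave 23 to 45 and 2 to 15 for heat, 240 to 306 and 261 to 406 for time, 69 to 139 and 143 to 304 for season, 9 to 33 and 12 to 53 for genotype by season, 20 to 43 and 2 to 9 for genotype by time, and 0 to 0 for genotype by heat. Within a tissue, libraries of different conditions with the same replicate number did not deviate together, since their residual correlations had medians between -0.018 and 0.017. The silique and seed pairs in the report are of the same condition and were not part of this check. With the replicate number as a block within season, 1 silique and 59 seed members differed between seasons, because the block takes up most of the season contrast, and the other counts stayed within 1.5 times. The unknown depth limits statements on low genes, which the rounding to whole numbers affects most.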
